A study of Homo sapiens with 2 samples.

Results

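The genes described here encode the nuclear pore complex and the machinery that carries cargo through it, measured in sorted cells of J82, an established human bladder cancer cell line. They were found by symbol: nucleoporins (NUP followed by a digit), importins (IPO, KPNA, KPNB, TNPO), exportins (XPO, CSE1L), RANBP genes and RAN, RANGAP1, RCC1, TPR, NXF1, SEH1L and POM121. The rule found 46 of 14232 genes, all named from probe sets that carry exactly 1 symbol, and each of the 46 was measured by 1 probe set. J82 cells were cultured in DMEM with serum, with no treatment named, stained with the DNA dye Hoechst and sorted. The side population (SP) is the fraction that holds little of the dye because transporters pump it out, and the non-side population (NSP) is the rest of the same line. Total RNA of each population was hybridised to 1 exon array, so there are 2 arrays and no replicate of either population. No difference below therefore has an error between samples, a test or a p-value, and every statement describes these 2 arrays. The number of sorts or cultures behind each array is not stated in the labels.

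The nuclear pore is a channel through the nuclear envelope built from many copies of a set of proteins called nucleoporins. Scaffold nucleoporins form rings, and FG nucleoporins fill the channel with flexible chains of phenylalanine-glycine repeats that bind passing transport receptors. Importins carry cargo inward and exportins outward, and the GTPase Ran, which is GTP-bound in the nucleus and GDP-bound in the cytoplasm, sets the direction by loading or unloading them. The pore disassembles in mitosis, and new pores are made as the nucleus grows in interphase.

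Values are RMA signals on the log2 scale, and a difference is SP minus NSP on that scale. The floor used below is the median of all values on both arrays, 7.44, and a gene was counted at or above it when its higher value reached it, as for 7549 of all genes. The median of their differences was -0.05 and the SD over genes 0.281, with the central 95% between -0.51 and 0.63. The dye transporters ABCB1 (9.87 in SP against 9.17 in NSP) and ABCC1 (10.50 against 10.11) had the higher value in SP, and ABCG2 (6.14 against 5.69) too, under the floor. Of 12 urothelial and epithelial markers 6 reached the floor, KRT8 and KRT18 among them, whereas EPCAM, CDH1, GATA3, UPK1A, UPK2 and UPK3A did not. PTPRC, CD3E, LYZ, PECAM1, CDH5, VWF, KDR and HBB lay under the floor, and the myeloid markers CD14 and CD68 reached it. In RNA from a population, fewer cells of a type and less RNA per cell cannot be told apart.

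Nuclear pore and transport genes as a whole differed little between SP and NSP, but the parts of the pore differed in direction. All 6 subunits of the outer ring, the Y complex, that the symbol rule found had lower values in SP. The share of lower values over all genes at or above the floor was 59.6%. NUP98, counted here with the channel, also encodes the Y complex subunit NUP96. Every measured gene of the central channel and of the nuclear basket had a higher value in SP, led by the basket protein gene NUP153, which was 1.63-fold higher. Differences of the other members were under 1.3-fold. These outer ring, channel and basket groups hold 6, 3 and 3 genes on 1 array a population, and no spread between arrays is known against which to set them.

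Of the 46 members 39 reached the floor, and 24 of these 39 (61.5%) were lower in SP, against 59.6% of all 7549 genes. That share is near the background. NUP153 was the 1 member at least 1.5-fold higher (2.56% of 39), where 3.10% of all genes were, and no member was at least 1.5-fold lower, where 1.43% of all genes were. At 1.2-fold, 5 members were higher (12.8%, against 11.3% of all genes) and 2 lower (5.13%, against 16.5%). The 5 were NUP153, NUP54, XPO6, TNPO3 and NUP58, and the 2 were SEH1L and NUP107. After removal of the trend of the difference on signal level, 20 of 39 were lower, against 51.2% of all genes, and the counts at 1.2-fold were 7 higher (17.9%, against 13.9% of all genes) and 0 lower (against 11.7%). The median difference over the 39 was -0.07 and the mean 0.0030. Without NUP153 the mean was -0.02, so the sign of the mean rests on that gene. The SD across the 39 differences was 0.216.

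**Figure D1:**
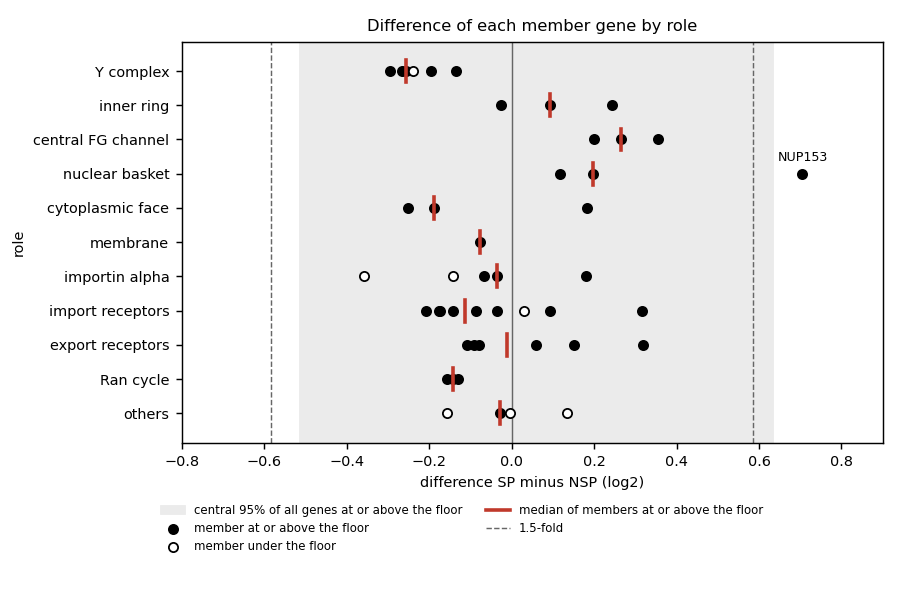
Difference SP minus NSP (log2) of each of the 46 members, 1 point a gene, in rows by role, with filled points at or above the floor and open points under it. The Y complex row lies wholly to the left of 0, at -0.30 to -0.14, the channel and basket rows wholly to the right, at 0.12 to 0.71, and NUP153 alone lies past the 1.5-fold line.

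The Y complex is the scaffold of the outer rings on both faces of the pore and recruits much of the rest. SEH1L, a subunit that also serves in the amino acid sensing complex GATOR2, had 9.73 in SP and 10.02 in NSP, 1.23-fold lower in SP. NUP107, after which the complex is often named, had 8.02 against 8.28, a difference of -0.27, and NUP133, a subunit that touches the membrane, 8.04 in NSP against 7.78 in SP. For these 3 genes, 13.2% to 17.2% of all genes counted at the floor had a lower difference. NUP160, a large subunit of the short arms, had 8.87 in SP and 9.07 in NSP, and the propeller protein gene NUP43 had 8.999 and 9.135. NUP37 lay under the floor on both arrays, with 7.05 in SP and 7.29 in NSP. The NSP array thus held the higher value for all 6, and the differences spanned -0.30 to -0.14 with a median of -0.26 over the 5 at or above the floor. The direction held for all 5 under the 3 alternatives that could change a gene's difference: centring, removal of the signal trend and quantile normalisation. NUP85, a further subunit, was not measured by a single-symbol probe set. The subunit NUP96 is encoded by NUP98, which is counted with the channel below and had the higher value in SP. Of the Y complex partners outside the symbol rule, SEC13 had 9.58 in SP and 9.82 in NSP, and AHCTF1, which recruits the complex to chromatin after mitosis, 8.49 and 8.52.

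The channel and the basket had the opposite sign. NUP153 builds the basket on the nuclear face, and its FG repeats bind importins and exportins. Its signal was 10.68 in SP and 9.97 in NSP, a difference of 0.71. In the order of differences from the highest in SP it stood at place 152 of 7549. The nearest protein-coding genes on either side of NUP153 in RefSeq order, looked up after its value was seen, were FAM8A1 (8.95 in SP, 8.83 in NSP) and KIF13A (8.69 and 8.44). Their differences, 0.11 and 0.25, had the same sign and were smaller. NUP50, a mobile basket protein that helps release cargo from importin alpha, had 8.43 in SP and 8.23 in NSP. TPR, which forms the filaments of the basket, had 8.82 and 8.70. All 3 basket genes were thus higher on the SP array, but only NUP153 passed 1.2-fold.

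In the central channel NUP54 and NUP58 form a trimer with NUP62. NUP54 had 7.89 in SP and 7.54 in NSP, 1.28-fold higher in SP, and its NSP value was only just above the floor. For NUP58 the values were 9.35 and 9.08, a difference of 0.26. NUP98 had 9.99 in SP and 9.79 in NSP. Its primary transcript also encodes NUP96, a Y complex scaffold cut from the same precursor, and a single probe set value does not tell these products apart. A probe set annotated to PHF23 and NUP98 together had 8.33 in SP and 8.75 in NSP, a difference of -0.42. Its identifier stands near that of the NUP88 probe set and far from that of the single-symbol NUP98 probe set. It may therefore not read NUP98, and it is not taken as a second value of that gene. The median of the 3 channel genes was 0.26. NUP62 itself was covered only by a probe set annotated with other genes as well, which had 8.67 in SP and 8.76 in NSP.

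**Figure D2:**
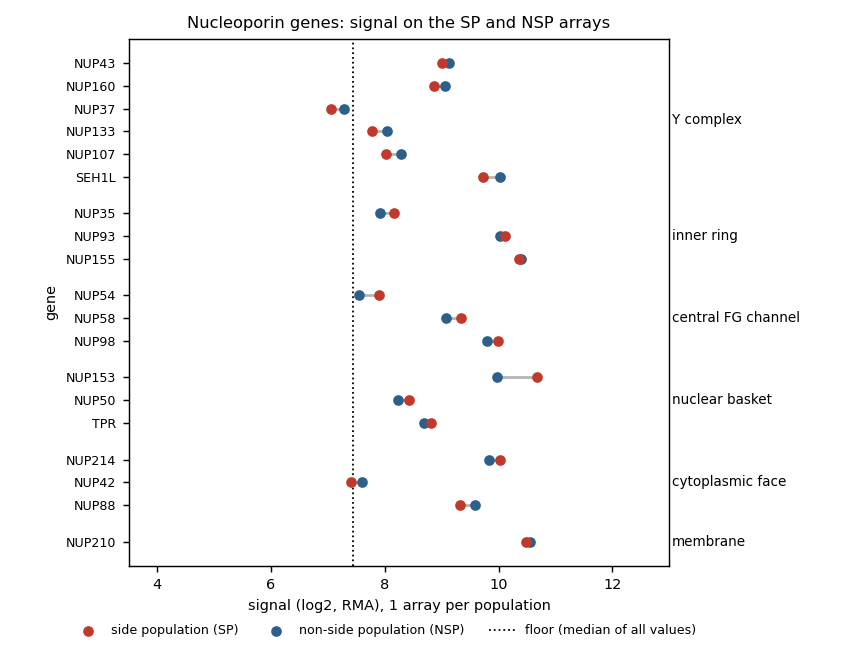
Signal (log2) of the 19 measured nucleoporin genes on the SP array (red) and the NSP array (blue), joined by a line per gene, with the floor at 7.44 as a dotted line. SP lies left of NSP for all 6 Y complex genes and right of it for the 3 channel and 3 basket genes, where NUP153 has the longest line, from 9.97 to 10.68.

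On the cytoplasmic face the genes were mixed. NUP214, an FG nucleoporin that receives exportin complexes, had 10.02 in SP and 9.84 in NSP. Its partner NUP88, which holds it on the pore, had 9.33 and 9.58, so the partners differed in opposite directions, by 0.18 and -0.25. NUP42, which binds the mRNA export factor GLE1, had 7.41 in SP and 7.60 in NSP, near the floor. RANBP2, the large SUMO ligase of the cytoplasmic filaments, had no single-symbol probe set. The inner ring links the scaffold to the membrane and the channel. Its hub gene NUP93 had 10.12 in SP and 10.03 in NSP, and NUP35, a membrane-binding subunit, 8.16 and 7.91. NUP155 had 10.37 and 10.39, a difference of -0.03 that turned to 0.03 after removal of the signal trend and to 0.01 after quantile normalisation. NUP188 and NUP205 were not measured. NUP210, a transmembrane glycoprotein of the pore, had 10.48 in SP and 10.56 in NSP.

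The FG nucleoporins can also be taken across these roles, a grouping made from textbook knowledge after the values were seen. Of 10 such genes 7 were measured (NUP42, NUP50, NUP54, NUP58, NUP98, NUP153 and NUP214), all at or above the floor, and 6 of the 7 had the higher value in SP (85.7%, against 40.1% of all genes). NUP42 was the exception. Their median difference was 0.20 and their range -0.19 to 0.71. NUP62, RANBP2 and POM121 were covered only by probe sets shared with other genes, and those values had both signs. The differences were -0.09 for NUP62, 0.59 for RANBP2, and -0.53, -0.56 and 0.52 for POM121, of which only the second reached the floor. The 12 measured nucleoporin genes outside this grouping held 3 with a higher value in SP (TPR, NUP93 and NUP35) and 9 with a lower one. Of those 9, 6 are the Y complex genes already described, and the rest are NUP155, NUP88 and NUP210. At or above the floor 8 of 11 were lower (72.7%, against 59.6% of all genes), with a median of -0.14.

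Sequences upstream of the start were read for the members at the ends of this contrast: NUP153 as the largest difference upward, SEH1L as the largest downward at or above the floor, NUP107 as the Y complex gene next to it, and NUP98 because its transcript serves both the channel and the outer ring. They are the 250 bases before the annotated start in RefSeq, build GRCh38.p14, written along the gene's strand. Capitals mark matches, on either strand, to the 4 motif classes searched: CCAAT, an NRF1 core (GCATGCGC), the cell cycle element CHR (TTTGAA) and an E2F core (TTTCCCGC or TTTGGCGC). NUP153 lies at chr6:17706926-17707175 (minus strand), NUP98 at chr11:3797547-3797796 (minus strand), NUP107 at chr12:68686728-68686977 (plus strand) and SEH1L at chr18:12947761-12948010 (plus strand).
NUP153: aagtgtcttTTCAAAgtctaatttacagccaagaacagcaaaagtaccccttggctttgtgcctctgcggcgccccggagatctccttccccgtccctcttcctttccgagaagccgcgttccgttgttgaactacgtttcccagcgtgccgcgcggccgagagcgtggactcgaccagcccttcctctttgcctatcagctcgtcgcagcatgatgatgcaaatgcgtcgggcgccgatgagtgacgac
NUP98: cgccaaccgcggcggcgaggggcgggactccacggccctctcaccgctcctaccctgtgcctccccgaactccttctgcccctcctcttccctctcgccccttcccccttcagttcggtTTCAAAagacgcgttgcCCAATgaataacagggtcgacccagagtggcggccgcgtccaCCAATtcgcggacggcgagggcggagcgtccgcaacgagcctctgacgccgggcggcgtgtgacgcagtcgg
NUP107: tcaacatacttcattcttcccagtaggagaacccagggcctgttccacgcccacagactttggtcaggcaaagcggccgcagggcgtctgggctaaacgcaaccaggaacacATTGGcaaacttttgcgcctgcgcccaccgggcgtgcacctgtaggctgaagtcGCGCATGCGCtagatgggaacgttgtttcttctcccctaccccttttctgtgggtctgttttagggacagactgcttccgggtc
SEH1L: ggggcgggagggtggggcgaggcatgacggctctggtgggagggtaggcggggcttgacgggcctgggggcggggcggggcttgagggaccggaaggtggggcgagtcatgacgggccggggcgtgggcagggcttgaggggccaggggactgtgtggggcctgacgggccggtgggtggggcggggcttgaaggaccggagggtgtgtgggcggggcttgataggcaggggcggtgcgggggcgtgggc

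The NUP153 stretch held 1 match, a CHR on the reverse strand that begins 241 bases before the start. NUP98 held a reverse CHR at 131 bases and CCAAT at 114 and 72 bases before the start. NUP107 held a reverse CCAAT at 138 bases and an NRF1 core on both strands, overlapping as a palindrome, from 84 bases before the start. SEH1L, at 76.4% GC, held none of these letters in its window, which says nothing about the factors that bind there. Promoters were found for 42 members, all but NUP43, KPNA5, KPNB1 and XPO7. Over windows of 300 bases, which also take in 50 bases after the start, CCAAT was present in 22 of the 42 (52.4%), against 37.2% of 6281 promoters of genes at or above the floor and 34.6% of all 35116 promoters in the table. CHR was present in 8 (19.0%), against 8.66% of genes at or above the floor and 15.2% of all promoters. The NRF1 core was present in 3 (7.14%, against 5.52% and 3.05%) and the E2F core in 2 (4.76%, against 3.81% and 2.27%). The 42 include members under the floor, so genes at or above the floor are not a like set. Over 11385 promoters of all genes with a single-symbol probe set, CCAAT was present in 36.5% and CHR in 11.7%. For the NRF1 and E2F cores these shares were 4.22% and 3.13%. Among Y complex genes CCAAT was in 2 of 5 windows and among FG nucleoporins in 3 of 7, so it was found in genes of either sign. TTTGAA is short and the 4 classes can fall in one window, so these shares are descriptions of the letters and not of bound sites.

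Import receptors with a single-symbol probe set were mostly lower in SP by small margins. At or above the floor these were 2 of 3 importin alpha genes and 6 of 8 beta family genes, against 59.6% of all genes. Receptors covered only together with other genes were mostly higher. Their probe sets differed by 0.52 (KPNA4 with SCARNA7), 0.31 (IPO7 with SNORA23), 0.24 (IPO11 with KIF2A) and -0.37 (TNPO2 with SNORD41). Importin alpha proteins read the classical nuclear localisation signal and hand cargo to importin beta. KPNA1 had 9.86 in SP and 9.68 in NSP and was the 1 of 5 measured adaptors with a higher value in SP. KPNA3 had 9.67 and 9.73, and KPNA6 10.42 and 10.46, differences of -0.07 and -0.04 that were 0.00095 and 0.02 after the signal trend was removed. KPNA2, whose expression follows proliferation in many tissues, had 6.73 in SP and 7.09 in NSP. That difference of -0.36 was the lowest of the 46, but both values lay under the floor, and they are those of 1 dim probe set, which may not stand for the level of the gene. Processed pseudogenes of KPNA2 add to that uncertainty. KPNA5 also lay under the floor, with 6.17 in SP and 6.31 in NSP.

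Among the importin beta family, KPNB1, the receptor that works with importin alpha, had 9.84 in SP and 9.99 in NSP. IPO5, an importer of ribosomal proteins, had 10.38 and 10.55. IPO4, which imports histones H3 and H4 with their chaperone, had 9.23 in SP and 9.41 in NSP, and IPO9, which imports H2A and H2B, 9.99 and 10.07. IPO13 carries cargo in both directions and had 8.22 and 8.42, the lowest difference of the family at -0.21. IPO8 had 7.79 in SP and 7.83 in NSP. All 6 of these genes thus had the higher signal on the NSP array, by at most 1.16-fold. The transportin genes TNPO3 and TNPO1 had the opposite sign, which the probe set shared by TNPO2 and SNORD41 (-0.37) did not. TNPO3, the importer of SR splicing factors, had 9.62 in SP and 9.31 in NSP, or 1.24-fold higher in SP. TNPO1, which imports hnRNP proteins, had 10.60 and 10.51. RANBP17, a relative of the exportin XPO7, lay under the floor at 6.68 and 6.65, and its difference of 0.03 turned to -0.0063 after the trend was removed. Over the 8 family members at or above the floor the median was -0.11.

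Export receptors split evenly, with 3 of 6 higher in SP and a median of -0.01. XPO6, the exporter of actin with profilin, had 10.70 in SP and 10.38 in NSP, 1.25-fold higher in SP. XPO1 (CRM1), which exports proteins with leucine-rich export signals, had 9.18 and 9.03, and XPO7 9.45 and 9.39. CSE1L, which returns importin alpha to the cytoplasm, had 10.99 in SP and 11.10 in NSP. XPO5, the exporter of microRNA precursors, had 9.43 and 9.51, and XPO4 9.02 and 9.11. The 3 lower genes thus stayed within 1.08-fold, and XPO6 was the 1 export receptor past 1.2-fold.

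The Ran cycle genes were lower in SP by nearly equal amounts. RAN itself had 9.19 in SP and 9.34 in NSP, and processed pseudogenes make its probe signal uncertain. RANGAP1, which switches off Ran's GTP on the cytoplasmic side, had 9.47 and 9.62. RANBP3, a nuclear cofactor of XPO1, had 8.96 and 9.09. These 3 differences lay between -0.16 and -0.13, within the middle of all genes, where 31.8% to 36.2% of genes had a lower difference. RCC1, the nuclear exchange factor that charges Ran, was covered only together with other genes, and RANBP1 and the mRNA exporter NXF1 were not measured. RANBP10, which shares a name with this group but is a scaffold protein of a ubiquitin ligase complex, had 8.94 in SP and 8.96 in NSP. The paralogs NUP210L (4.48 and 4.35), NUP62CL (6.36 on both arrays) and RANBP3L (4.04 and 4.19) lay under the floor.

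**Figure D3:**
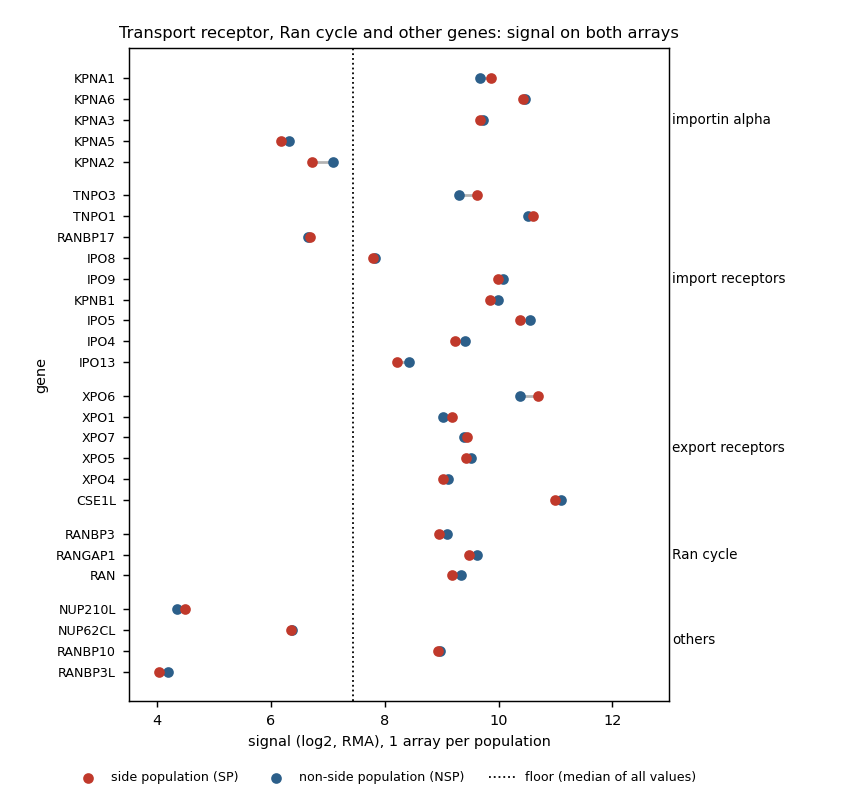
Signal (log2) of the 27 other measured members on the SP array (red) and the NSP array (blue), by role, with the floor at 7.44 as a dotted line. Most pairs nearly coincide, the widest lines at or above the floor are those of XPO6 and TNPO3 with SP to the right, and KPNA2 has a wider line at values under the floor.

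Genes of the same processes outside the symbol rule were mostly lower in SP. Of 55 listed genes 38 were measured and 33 reached the floor, of which 26 (78.8%) were lower in SP, with a median of -0.13, beside 59.6% and -0.05 for all genes. At 1.2-fold 2 were higher (6.06%, against 11.3% of all genes) and 7 lower (21.2%, against 16.5%). In the pore and transport list 14 of 15 were lower. These related genes were not recounted with the signal trend removed, after which 51.2% of all genes were lower. PCID2, a subunit of the mRNA export complex TREX-2, had 8.94 in SP and 9.49 in NSP, or 1.46-fold lower in SP, and its partner ENY2 had 9.23 and 9.61. THOC7, of the TREX complex that packages mRNA for export, had 7.501 in SP and 7.997 in NSP, or 1.41-fold lower. NDC1, a membrane anchor of the pore, had 8.95 and 9.17, and NUTF2, the importer of Ran itself, 12.16 and 12.30. The snRNA export adaptor gene PHAX went the other way, with 8.43 in SP and 8.16 in NSP.

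The lamina lines the inner face of the envelope beside the pores. TMPO, which encodes the lamin-binding LAP2 proteins, had 9.50 in SP and 10.20 in NSP. At 1.62-fold lower in SP it was the 1 related gene past 1.5-fold. LMNB2, a B-type lamin gene, had 9.61 and 10.05, or 1.36-fold lower. LMNA, which encodes lamins A and C, had the opposite sign, with 10.93 in SP and 10.56 in NSP, or 1.29-fold higher. THOC2 (0.14) completes the 3 related genes furthest upward at or above the floor, with LMNA and PHAX.

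G2/M genes mostly had the sign of the Y complex on these arrays. Of 17 that reached the floor 15 had the lower value in SP (88.2%, against 59.6% of all genes), with a median of -0.31. Of 16 G1/S genes 11 were lower (68.8%), a share nearer to that of all genes, with a median of -0.18. Neither cell cycle list was recounted with the signal trend removed. TOP2A, the lowest of the G2/M list at -0.48, had 9.33 in SP and 9.81 in NSP. The proliferation marker MKI67 had 9.08 and 9.53. CDC20 and CENPF were the 2 G2/M genes with a higher value in SP, each by 0.02. The Y complex median of -0.26 lay between the medians of these lists, while the FG nucleoporin median of 0.20 had the opposite sign. The part of cell cycle differences in the values of the members was not tested.

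**Figure D4:**
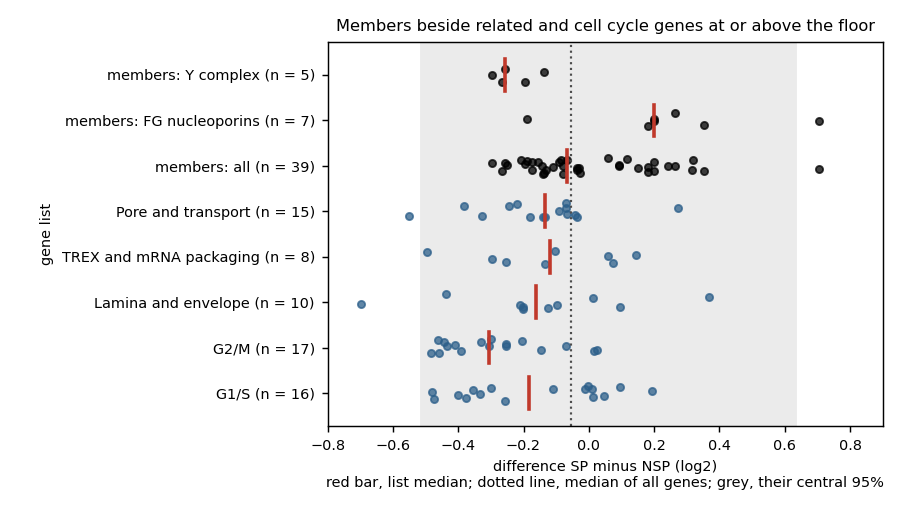
Difference SP minus NSP (log2) of each gene at or above the floor, 1 point a gene, for the members and for the related and cell cycle lists, with red bars for list medians and a dotted line at the median of all genes (-0.05). The Y complex (median -0.26) lies among the G2/M values (median -0.31), and 6 of 7 FG nucleoporins lie to the right of 0.

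The contrast between the outer ring and the FG nucleoporins kept its direction when the same arrays were processed in other ways. This gives it no independent support. The FG grouping was made after the values were seen, and no member moved by 0.1 or more. With the signal trend removed, which moved the median of all genes from -0.05 to -0.0067, the Y complex median was -0.22 and the FG nucleoporin median 0.27.

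**Figure D5:**
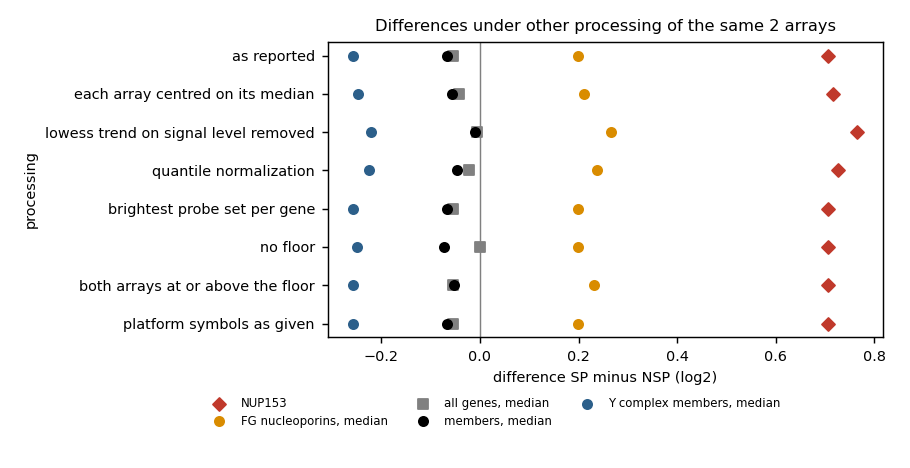
Median differences SP minus NSP (log2) of the Y complex members, the FG nucleoporins, all members and all genes, and the difference of NUP153, as reported and under 7 alternatives, of which only centring, trend removal and quantile normalisation can change the difference of a member. The Y complex median stays between -0.26 and -0.22, the FG nucleoporin median between 0.20 and 0.27, and NUP153 between 0.71 and 0.77.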

How the data were processed

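The table holds log2 signal values that the authors deposited, 1 column for each array, made with RMA and Partek per the submitters' processing notes. Their versions, the definition of probe sets, any filter and the build were not given in the sources used. RMA subtracts background, equalises arrays and summarises probes, and it compresses differences of dim probe sets. Depth has no meaning here, and the number of arrays (1 for each population) limits the precision.

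Of 22011 probe sets 14432 carried exactly 1 symbol in the platform annotation, 2408 several and 5171 none. Current symbols came by Entrez identifier from RefSeq (GRCh38.p14), which matched 14404 probe sets. Probe sets of a gene were averaged. The difference was SP minus NSP, and a fold is 2 to the power of its size. With 1 sample a group no test was run. Counts were made at 1.5-fold and 1.2-fold among genes at or above the floor, beside the same over all genes. All members are named by role, and of related genes the 3 furthest each way. AHCTF1, SEC13, NDC1, NUTF2, LMNB2, ENY2, TOP2A, MKI67, CDC20 and CENPF were named besides, after their values were seen. The members and lists were chosen with earlier results of these data known. Alternatives were centring, removal of a lowess trend (span 0.3), quantile normalisation, the brightest probe set, other floors and platform symbols. Trend removal and the taking of differences were tested on simulated data, with shifts larger than the difference of any member. The other steps were not tested in this way. Protein sequences were not used here. Python 3.11.15, numpy 2.4.6, pandas 2.3.3, statsmodels 0.14.6 and matplotlib 3.10.9 were used.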

Additional observations from a re-analysis of the deposited data

Results flagged for a closer look

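A probe set annotated to RANBP2, RGPD3 and RGPD4 together, which the comparisons of single-symbol genes do not use, had 8.94 in SP and 8.35 in NSP. Its difference of 0.59, or 1.51-fold higher in SP, was the 1 past 1.5-fold among the 13 probe sets at or above the floor that carry a member's symbol beside others. RGPD genes are near-identical copies of parts of RANBP2, an FG nucleoporin of the cytoplasmic filaments, so the signal cannot be given to 1 of them.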

How the results depend on the processing

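Of the 7 alternatives, 4 (the other floors, the brightest probe set and platform symbols) could not change a member's difference, since each member has 1 probe set and an unchanged symbol. The other 3 moved none of the 46 differences by 0.1 or more on the log2 scale, a tolerance used because no spread between replicates exists. Of the members, 6 changed sign under at least 1 of these 3, all with a reported size of 0.07 or less. NUP153 stayed the 1 member past 1.5-fold under these 3. The number of members at least 1.2-fold lower in SP was 2 as reported, 1 after centring, 1 after quantile normalisation and 0 after removal of the signal trend. Taking the mean of the 39 members instead of their median gave 0.0030, against -0.07. When both arrays had to reach the floor, 0 FG nucleoporins were lower in SP in place of 1, because NUP42 left the count. With 1 array for each population, differences of the size seen in most members cannot be told from array variation.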

Other observations

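In all, 17 probe sets carried a member's symbol beside those of other genes, with differences from -0.56 to 0.59. Of these, 4 named a gene that also has a single-symbol probe set, and the other 13 named genes measured in no other way here. The probe set annotated to the importin alpha gene KPNA4 and the small RNA gene SCARNA7 had 10.06 in SP and 9.54 in NSP. The one annotated to IPO7 and SNORA23 had 10.79 and 10.48. For IPO11 with KIF2A the values were 7.90 in SP and 7.66 in NSP. The one annotated to TNPO2 and SNORD41 had 9.93 and 10.30, the opposite sign to the single-symbol transportin genes TNPO1 and TNPO3. The probe set annotated to NUP62, IL4I1, AKT1S1 and SIGLEC11 had 8.67 and 8.76, so it did not share the sign of the channel partners NUP54 and NUP58. Of 3 probe sets that carry POM121 with other genes, the differences were -0.53, -0.56 and 0.52, and only the second reached the floor.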
